A study of Mus musculus with 10 samples.

Results

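The Hox genes described here are 38 genes of the mouse HoxA, HoxB, HoxC and HoxD clusters, chosen by symbol and found in both tables of scRNA-seq counts among 26842 genes that the tables share. There were 10 members in HoxA, 10 in HoxB, 9 in HoxC and 9 in HoxD. Single cells of an in vitro germline differentiation were profiled in 8 libraries of E14Tg2a, a male wild-type mouse ESC line, and in 2 libraries of d4 embryoid bodies (EB) from the mouse ESC line R1. The E14Tg2a libraries were naive ESC kept in medium with 2 inhibitors and LIF (2i ESC), epiblast-like cells after 1, 2 and 3 days (d1, d2 and d3 EpiLC), stably passaged epiblast stem cells (EpiSC), ESC grown in serum plus LIF (S+L ESC), and EB after 2 and 4 days (d2 and d4 EB). EB were aggregates of d2 EpiLC cultured with BMP4, SCF, LIF and EGF, in which a minority of cells become primordial germ cell-like cells (PGCLC). The R1 libraries were d4 EB of unedited cells (R1 WT) and of Mll3/4 dCD cells (dCD), a clonal R1 derivative in which point mutations leave the histone methyltransferases MLL3 and MLL4 without catalytic activity. Every condition had 1 library, so condition and library cannot be told apart, no test between conditions exists and no p-value is given. A summed level of a whole library does not tell fewer cells that express a gene from less RNA per cell, so shares of cells are given too.

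Hox genes encode homeodomain transcription factors that specify position along the head-to-tail axis. Within each cluster they are numbered by paralog group in the order of their position on the chromosome, low numbers are in general switched on earlier and end further forward in the embryo, and high numbers later and further back. In silent clusters the genes lie under Polycomb repression, and activation in the posterior epiblast and its mesoderm is known to involve WNT and FGF signals, CDX factors and retinoic acid. Germ cells of the mouse embryo are set aside next to this mesoderm and are known to lower somatic genes, Hox genes among them.

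On GRCm38 the HoxA members lie on the minus strand of chromosome 6 from 52162417 to 52260880, the HoxB members on the plus strand of chromosome 11 from 96194316 to 96368256, the HoxC members on the plus strand of chromosome 15 from 102921103 to 103036852 and the HoxD members on the plus strand of chromosome 2 from 74668310 to 74765142. The clusters are dense, and 9 members share exon bases with another gene on the same strand. Of these, 4 share them with another member (Hoxc5 with Hoxc10, and Hoxd3 with Hoxd4), so the division of their counts is uncertain.

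Upstream sequence was read for the members at the ends of the d2 to d4 EB comparison below, because there the genes of the same clusters parted. RefSeq windows of 250 bases before the annotated start on GRCm38.p6 were found for 22 of 38 members. Among members called in that comparison that had a window, the first pair below holds those with the highest log2 ratio of d4 to d2 EB and the middle pair those with the lowest, and the last pair those with the most matches of TTTATG, the core that CDX factors bind. Capitals mark matches of TTTATG or of TGATNNAT, a motif bound by PBX and HOX proteins together, on either strand, with no base in both. The windows are Hoxd13 at chr2:74667975-74668224, Hoxd11 at chr2:74679308-74679557, Hoxb1 at chr11:96365508-96365757, Hoxd9 at chr2:74697513-74697762 and Hoxb8 at chr11:96281655-96281904 on the plus strand, and Hoxa7 at chr6:52218574-52218823 on the minus strand, each written in the direction of its gene.
Hoxd13: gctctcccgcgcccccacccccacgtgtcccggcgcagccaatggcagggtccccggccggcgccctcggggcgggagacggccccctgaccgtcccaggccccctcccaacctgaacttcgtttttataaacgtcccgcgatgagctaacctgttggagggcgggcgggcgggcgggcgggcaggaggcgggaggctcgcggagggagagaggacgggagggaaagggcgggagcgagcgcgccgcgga
Hoxd11: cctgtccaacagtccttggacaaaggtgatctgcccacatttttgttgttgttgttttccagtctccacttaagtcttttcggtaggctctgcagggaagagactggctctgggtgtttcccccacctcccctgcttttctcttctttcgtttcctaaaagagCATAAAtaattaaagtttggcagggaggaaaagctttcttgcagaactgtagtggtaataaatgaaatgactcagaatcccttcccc
Hoxb1: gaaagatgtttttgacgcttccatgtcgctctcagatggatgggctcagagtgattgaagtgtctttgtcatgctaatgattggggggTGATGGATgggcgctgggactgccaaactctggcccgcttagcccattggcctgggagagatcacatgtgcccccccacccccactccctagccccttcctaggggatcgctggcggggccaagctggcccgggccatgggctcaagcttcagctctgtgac
Hoxd9: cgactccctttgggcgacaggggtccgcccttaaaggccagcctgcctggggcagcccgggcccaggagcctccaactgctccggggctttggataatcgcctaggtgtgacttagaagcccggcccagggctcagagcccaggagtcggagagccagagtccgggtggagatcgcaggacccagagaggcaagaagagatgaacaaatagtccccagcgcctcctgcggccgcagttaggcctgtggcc
Hoxa7: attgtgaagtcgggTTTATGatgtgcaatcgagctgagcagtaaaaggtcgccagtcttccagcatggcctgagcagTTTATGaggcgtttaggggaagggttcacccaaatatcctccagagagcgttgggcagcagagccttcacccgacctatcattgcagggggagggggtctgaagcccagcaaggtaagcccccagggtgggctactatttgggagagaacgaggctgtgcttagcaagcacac
Hoxb8: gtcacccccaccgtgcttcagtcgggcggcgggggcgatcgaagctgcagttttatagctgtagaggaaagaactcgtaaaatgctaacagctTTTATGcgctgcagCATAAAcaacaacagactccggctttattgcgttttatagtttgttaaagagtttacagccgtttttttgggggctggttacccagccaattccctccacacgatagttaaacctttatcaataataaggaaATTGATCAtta

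TTTATG was present in 5 of 22 members, 22.7%, against 11.1% of the windows of all 27025 genes. TGATNNAT was present in 3 members, 13.6%, against 7.91% of all genes. The windows of the members held a median of 12 CpG against 6 over all genes, with 31 in Hoxd13, whose product shapes digits and the urogenital tract, and 2 in Hoxd11. A match is a description of these letters and not a bound site, and a window without a match says nothing about the factor.

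Before EB formation the Hox clusters were close to silent. Levels are given as UMIs (unique molecular identifiers, each a counted transcript) per 1000000 UMIs of a group of cells (CPM), with exact 95% Poisson intervals that cover counting error only. In 3′ counts these levels do not scale with transcript length, so members are set side by side on this scale. Differences in capture between genes were not tested, and shared exon bases leave the counts of some members uncertain. Summed over the 38 members, the level was 8.71 CPM for S+L ESC and 14.2 CPM (11.8 to 16.9) for 2i ESC. It was 5.64, 1.79 and 0.852 CPM in EpiLC of d1, d2 and d3, and 29.5 CPM in EpiSC. In d2 EB they had 407 CPM (396 to 417) and in d4 EB 392 CPM (380 to 405). The R1 WT d4 EB library had 512 CPM (502 to 522) and the dCD d4 EB library 115 CPM (110 to 119). E14Tg2a and R1 values stand side by side without a ratio, because kit version and processing differed.

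**Figure D1:**
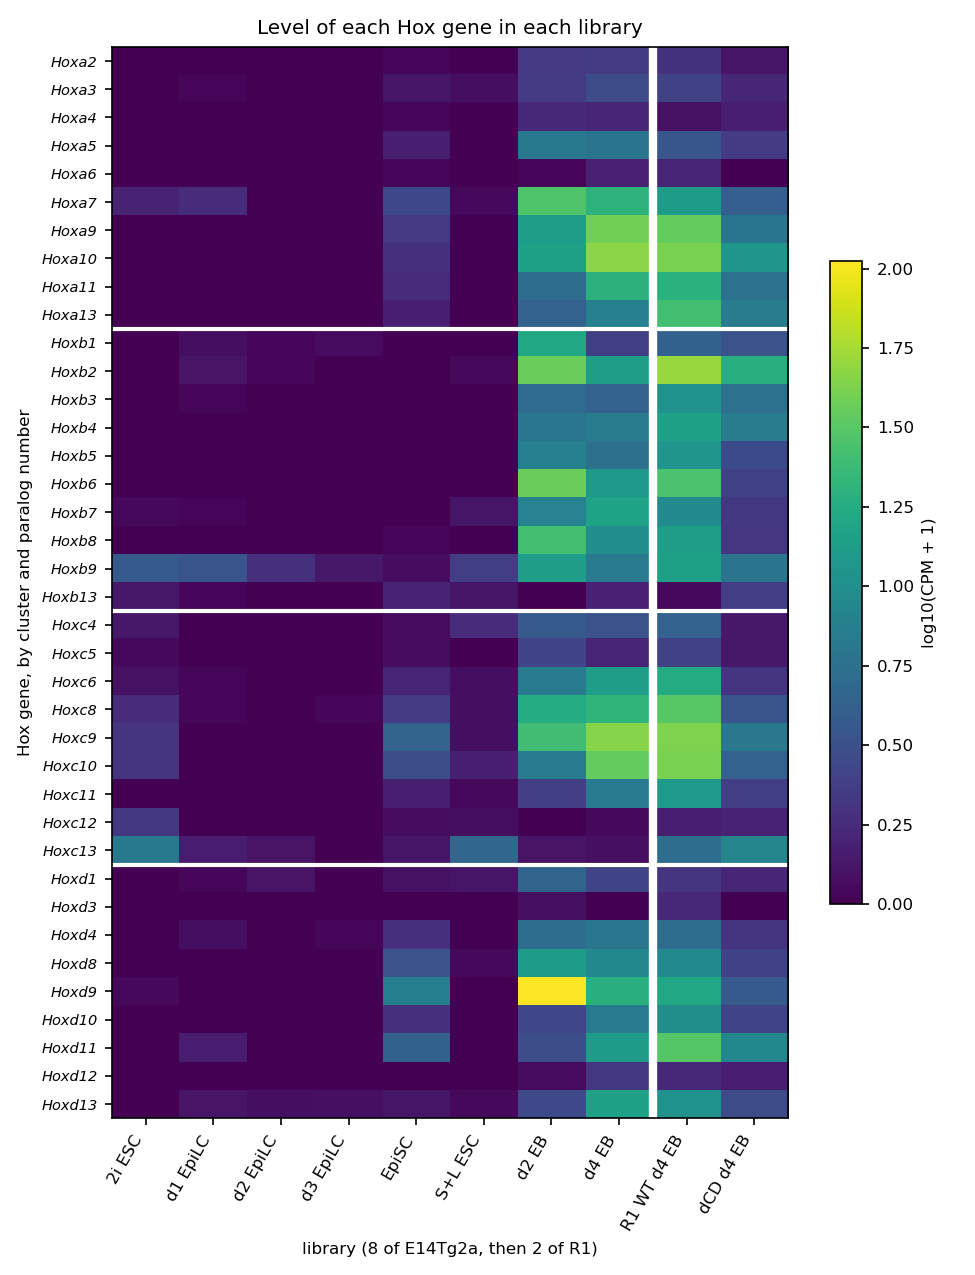
Level of each of the 38 Hox members (rows, by cluster and paralog number) in each of the 10 libraries (columns), in CPM on a log color scale. The EB libraries hold nearly all the signal, with d2 EB at 407 and d2 EpiLC at 1.79 CPM summed over members.

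Cells with at least 1 UMI of any member made up 36.1% (29.9 to 42.7) of 227 2i ESC and 23.0% of S+L ESC, 18.6%, 5.54% and 3.01% of EpiLC at d1, d2 and d3, and 11.5% of EpiSC. In EB the share was 83.1% of 537 cells at d2 and 83.4% of 368 cells at d4, and in R1 it was 76.0% of 1416 WT and 44.6% of 1699 dCD cells. The intervals of these shares are exact binomial (Clopper-Pearson). Median depth ranged from 21658 to 36750 UMIs per cell over E14Tg2a libraries and was 13188 in WT and 11751 in dCD, so shares were also taken with cells thinned to the same number of UMIs within a table. They were then 18.4% in 2i ESC and 13.3% in S+L ESC, 7.87%, 3.18% and 0.771% in EpiLC of d1, d2 and d3, and 7.48% in EpiSC. The EB libraries had 77.8% at d2 and 79.2% at d4, with 70.3% in R1 WT and 34.5% in dCD. The order of the libraries within each table was the same with and without thinning.

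The low signal of ESC came from a few members. Hoxc13, a gene known for its role in hair and nails, gave 49 of the 124 Hox UMIs of 2i ESC and 37 of the 88 of S+L ESC. Hoxb9, a thoracic paralog, gave 24 and 14 UMIs there and 26, 10 and 5 in d1, d2 and d3 EpiLC. In d2 EpiLC, the cells from which EB were made, 32 of the 38 members had no UMI, and HoxA had none at all. In EpiSC 13 of 373 cells had 5 or more members, against 1 cell of 2i ESC and 0 in S+L ESC and each EpiLC library, and 10 cells held 66.3% of the 377 Hox UMIs. Its leading members were Hoxd9 with 82, Hoxc9 with 43 and Hoxd11 with 41 UMIs, and HoxB, with 10 UMIs, was nearly empty.

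From d2 EpiLC to d2 EB, all 4 clusters came to be detected together. HoxA went from 0 UMIs to 70.1 CPM, HoxB from 1.08 to 148 CPM, HoxC from 0.269 to 59.0 CPM and HoxD from 0.448 to 130 CPM. Genes were compared by the log2 ratio of CPM with a pseudocount of 1 CPM, where both groups together had at least 10 UMIs, and called higher or lower at 2-fold or more. Of 32 members tested 31 were higher, against 13.1% of all 13744 genes tested, and the ratio of the summed CPM was 227 (147 to 372). Hoxa4, with 10 UMIs in d2 EB and 0 in d2 EpiLC, was the member not called.

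The most abundant member of d2 EB was Hoxd9, a paralog of the trunk and limb field, with 105 CPM (99.3 to 110) against 0 in d2 EpiLC, at least 389-fold higher with a floor of 3 counts for the empty library. Next came Hoxb2 with 36.3 CPM and Hoxb6 with 36.0 CPM, then Hoxa7 with 28.1, Hoxb8 with 24.8 and Hoxc9 with 24.1 CPM. Hoxd9 alone thus held 25.7% of the Hox UMIs of d2 EB and 80.4% of those of HoxD. Hoxb1, a marker of the early posterior epiblast and later of a hindbrain segment, had 15.1 CPM against 0.0896. Members at the posterior end were detected at d2 at lower levels, such as Hoxa13 with 3.34 CPM and Hoxd13 with 1.77 CPM.

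Known partners and inputs of the Hox genes were counted in the same way. Among genes for DNA-binding cofactors of HOX proteins, Meis1, Meis2, Meis3, Pbx2 and Pknox2 were higher in d2 EB than in d2 EpiLC. Of 10 tested upstream factors 8 were higher, with Cdx2 at 234 against 0.0896 CPM, Fgf8 at 132 against 38.01 and T, the mesoderm regulator brachyury, at 63.6 against 0.0896. Of 12 chromatin regulators 2 were higher (Kdm6b and Bmi1) and 1 lower (Phc1).

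Between d2 and d4 EB the total did not move by 2-fold, while its composition did. The summed ratio of d4 to d2 EB was 0.964 (0.926 to 1.005), and without Hoxd9, a choice made after seeing the data, it was 1.24. HoxA was 1.97-fold (1.82 to 2.14) and HoxC 2.05-fold (1.87 to 2.24) the d2 level, while HoxB had a ratio of 0.459 (0.420 to 0.502) and HoxD of 0.504 (0.460 to 0.551). The direction of HoxD rested on Hoxd9, without which HoxD had a ratio of 1.86 (1.61 to 2.13). By paralog number, groups 1 to 3 (anterior) had a ratio of 0.355 (0.304 to 0.413), groups 4 to 8 (central) of 0.754 (0.702 to 0.810) and groups 9 to 13 (posterior) of 1.34 (1.27 to 1.42). Without Hoxd9 the posterior groups had a ratio of 2.81 (2.62 to 3.01). Group 9 alone had a ratio of 0.694 with Hoxd9 and of 1.80 (1.63 to 1.99) without it, and groups 10, 11 and 13 had 4.09, 4.85 and 3.88. The mean paralog number, weighted by UMIs, was 7.14 at d2 and 8.51 at d4.

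Among 33 members tested 8 were higher at d4, against 9.73% of all genes, and all 8 were paralogs 9 to 13. Hoxd13 stood at 1.77 CPM at d2 and 13.4 CPM at d4, a ratio of 7.57 (4.94 to 12.0). Hoxd11, a gene of the forearm and kidney, stood at 2.05 and 12.2 CPM (ratio 5.95, 3.95 to 9.21), and Hoxc10, a lumbar and hindlimb paralog, at 5.80 and 34.2 CPM (ratio 5.89, 4.62 to 7.56). The other 5 were Hoxa11 with a ratio of 4.55, Hoxc11 with 4.14, Hoxd10 with 3.48, Hoxa10 with 3.40 and Hoxa9 with 3.08. Hoxa13 missed the call, with 3.34 CPM at d2, 6.77 CPM at d4 and a ratio of 2.02 (1.38 to 2.99).

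Against 3.54% of all genes, 6 members were lower at d4. Hoxb1 stood at 15.1 CPM at d2 and 1.35 CPM at d4, a ratio of 0.0897 (0.0470 to 0.157), and the share of cells with a Hoxb1 UMI was 24.0% at d2 and 1.09% at d4. Hoxd9 stood at 105 and 18.1 CPM (ratio 0.173, 0.147 to 0.203), and a UMI of it was found in 66.9% and 28.5% of cells. The other 4 were all HoxB genes, Hoxb6 with a ratio of 0.306, Hoxb2 with 0.341, Hoxb8 with 0.356 and Hoxb9 with 0.456. Hoxb7, their neighbor, went the other way without being called, with 6.83 CPM at d2 and 13.95 CPM at d4 (ratio 2.04, 1.57 to 2.68).

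**Figure D2:**
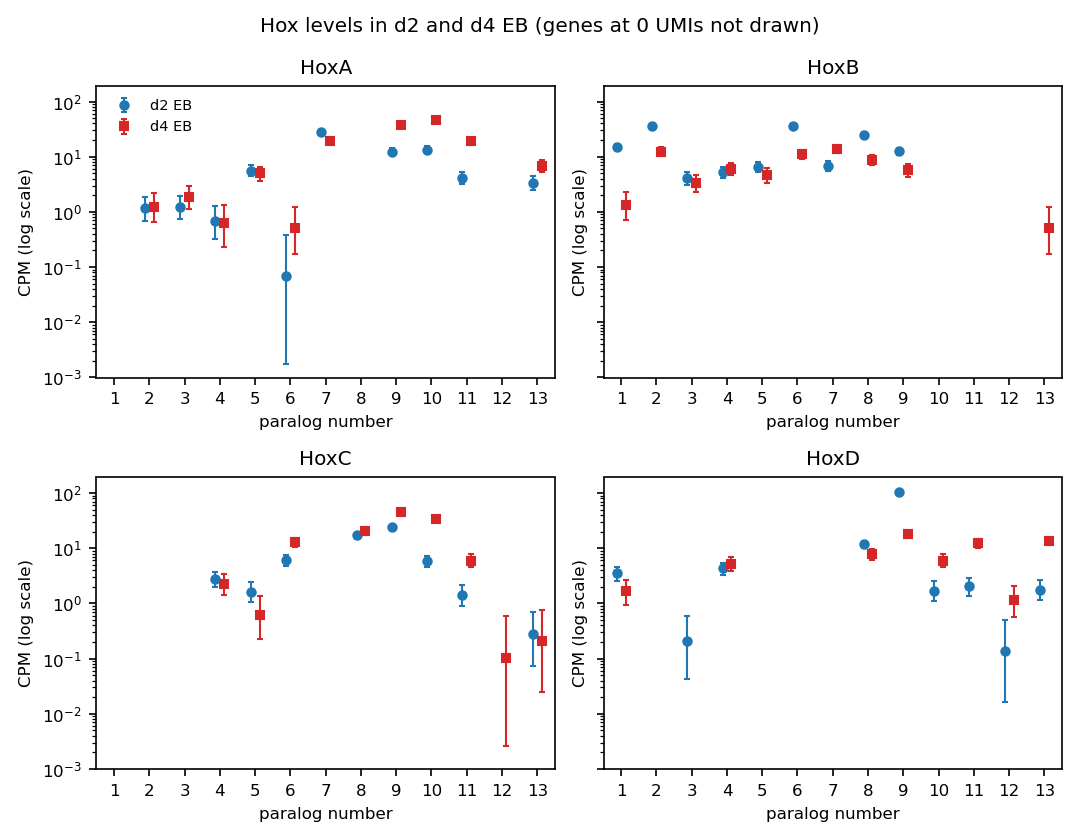
CPM of the Hox members in d2 EB and d4 EB of E14Tg2a by cluster and paralog number, on a log axis, with exact 95% Poisson intervals as bars. Hoxd13 stands at 1.77 CPM at d2 and 13.4 at d4, and Hoxb1 at 15.1 and 1.35.

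Of the 12 upstream factors 8 were lower at d4 and 2 were higher. Cdx2 stood at 234 CPM at d2 and 25.7 at d4, T at 63.6 and 0.208, and Cyp26a1, which degrades retinoic acid, at 55.4 and 3.64. The higher factors were Rarb, a retinoic acid receptor gene, with 0.341 and 5.31 CPM, and Aldh1a2, which makes retinoic acid, with 0.0683 and 1.87 CPM. Meis1 and Meis2 were the cofactors called higher, Meis1 with 1.57 and 18.6 CPM and Meis2 with 46.6 and 109 CPM. None of the 12 chromatin regulators was called in either direction.

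The cell makeup of the EB differed between the 2 days, so members were also compared within cell clusters. Clusters were made without the Hox genes and other genes of those regions, 91 symbols in all, and named only from fixed marker lists. In d2 EB cluster 1 (391 cells, led by Pitx1, Fgf3 and Prdm6, with 6 of 6 tested extraembryonic mesoderm markers at least 2-fold higher than in other cells) had 593 CPM (577 to 608) over all members. Cluster 2 (91 cells, PGC-like) had 70.7 CPM and cluster 3 (55 cells, extraembryonic ectoderm-like) 15.9 CPM. In d4 EB cluster 1 (255 cells, led by hemoglobin genes, Ptn and Pitx1, and left unnamed) had 615 CPM (594 to 637). In it 7 of 8 tested extraembryonic mesoderm markers and 4 of 6 primitive blood markers were at least 2-fold higher than in other cells. The endothelium-like cluster 4 (27 cells) had 291 CPM, the extraembryonic ectoderm-like cluster 3 (39 cells) 43.2 CPM and the PGC-like cluster 2 (47 cells) 21.8 CPM. Hox transcripts thus lay in the cells with Pitx1 and in endothelium-like cells, and were sparse in the others.

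Within cluster 1 of each day, with Pitx1 among its leading genes, HoxA and HoxC again lay above the d2 level and HoxB below it. Of 33 members tested 10 were higher at d4, against 12.2% of all genes, and 8 were lower, against 6.93%. HoxA had a ratio of d4 to d2 of 2.14 (1.97 to 2.34), HoxC of 2.28 (2.08 to 2.50), HoxB of 0.423 (0.382 to 0.467) and HoxD of 0.545 (0.495 to 0.5996). Without Hoxd9 the ratio of HoxD was 2.03 (1.76 to 2.35) here too, on the side of HoxA and HoxC. Anterior groups had a ratio of 0.354, central groups of 0.764 and posterior groups of 1.48, or 3.09 without Hoxd9. Hoxd13 stood at 2.59 and 23.2 CPM (ratio 8.97, 5.80 to 14.4) and Hoxd9 at 152 and 26.9 CPM (ratio 0.178, 0.149 to 0.211). Hoxc6, with 8.91 and 22.7 CPM, was higher here, and Hoxb5, with 9.94 and 4.27 CPM, lower. Primitive blood markers, hemoglobin genes included, summed to 0.829 CPM in cluster 1 of d2 EB (2 of 6 markers with a UMI) and 1694 CPM in cluster 1 of d4 EB (6 of 6), and their part in the comparison was not tested.

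The endothelium-like cells of d4 EB used the clusters differently from cluster 1. They had 115 CPM of HoxB and 105 of HoxA, but 20.8 CPM of HoxC, against 89.8, 222 and 201 CPM in cluster 1. Their leading members were Hoxa7 and Hoxa9 with 33.3 CPM each and Hoxb7 with 28.3 CPM, while Hoxc6 was at 0 UMIs against 22.7 CPM in cluster 1. These values rest on 27 cells and carry counting error only.

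Hox members were also found together within cells. In thinned cells the median number of members with a UMI was 3 in d2 EB (highest 17), 5 in d4 EB (highest 16), 2 in R1 WT (highest 14) and 0 in dCD (highest 15). At least 1 member of each of the 4 clusters was found in 18.9% of d2 EB, 22.7% of d4 EB, 13.2% of WT and 0.458% of dCD cells.

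Pairs of members were compared within clusters of cells, as shares of thinned cells with the latter member among cells with and without the former. In d2 EB cluster 1, Hoxa10 was found in 49.2% (36.4 to 62.1) of cells with Hoxa9 and in 13.1% (9.60 to 17.4) of cells without it. Hoxb8 was found in 49.0% of cells with Hoxb6 and in 23.5% of those without. Across clusters, Hoxa10 was found in 18.4% (12.6 to 25.5) of cells with Hoxb2 and in 19.7% (14.7 to 25.6) of cells without it. For Hoxd9 and Hoxa10 the shares were 22.6% (17.9 to 27.8) and 7.23% (2.70 to 15.1), for Hoxd9 and Hoxb8 38.4% and 15.7%, and for Hoxa10 and Hoxc10 22.2% and 4.62%. All of the 7 pairs counted there but Hoxb2 and Hoxa10 had the higher share in cells with the former member. Pairs of other genes were not counted, so whether such shares are particular to Hox members was not tested. The intervals cover counting error over cells of 1 library. In d4 EB cluster 1 the intervals did not overlap for Hoxc9 and Hoxc10 (59.9% and 31.5%) or Hoxa10 and Hoxc10 (57.2% and 31.1%). They overlapped for the other pairs there. For Hoxa9 and Hoxa10 the shares were 74.8% and 57.6%, and for Hoxd9 and Hoxa10 69.5% and 66.5%.

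Cells that the study lists as PGCLC had less Hox RNA than the rest of the EB on both days. The lists were drawn up by the authors from expression in the same cells, so the difference is a description. At d2 the 91 listed PGCLC had 296 Hox UMIs, 101 CPM (89.7 to 113), against 483 CPM (471 to 496) in the 446 other cells, 4.79-fold higher in the latter (4.26 to 5.40). At d4 the 44 listed PGCLC had 11 Hox UMIs, 10.4 CPM (5.21 to 18.7), against 439 CPM (425 to 454) in the 324 other cells, a ratio of 42.1 (23.5 to 84.5). With the PGC-like cluster of 47 cells taken as PGCLC in place of the list, the ratio at d4 was 20.3. Of the listed cells 83 of 91 at d2 and 44 of 44 at d4 fell in the PGC-like cluster 2 of their library.

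**Figure D3:**
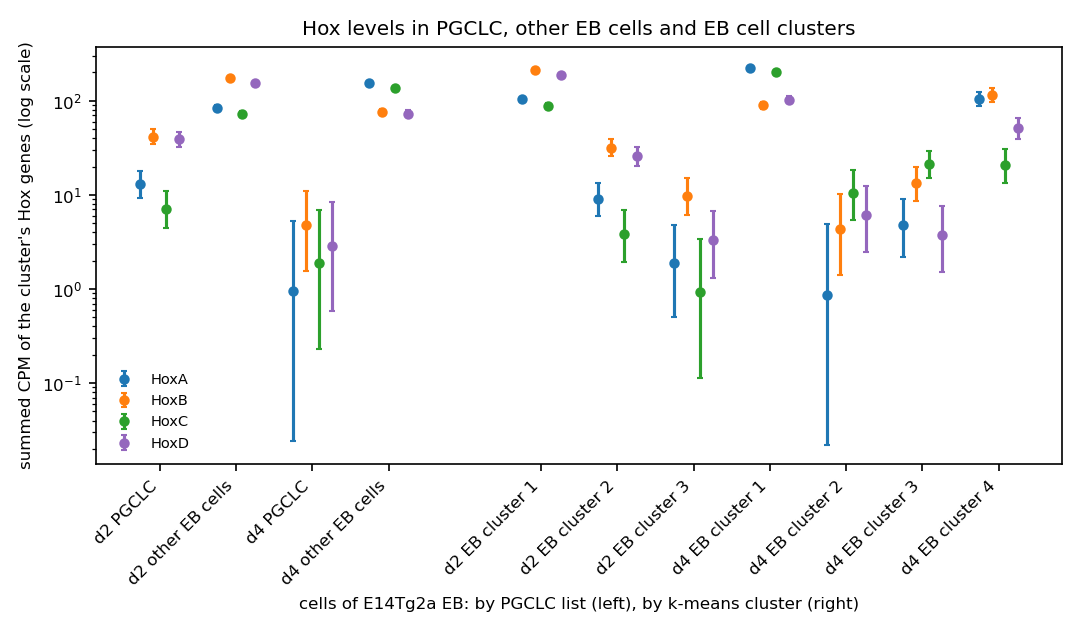
Summed CPM of the Hox members in listed PGCLC, other EB cells and the k-means cell clusters of d2 and d4 EB of E14Tg2a, on a log axis, with exact 95% Poisson intervals as bars. Listed PGCLC stand at 101 CPM at d2 and 10.4 at d4, against 483 and 439 in other EB cells.

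At d2 the listed PGCLC were not empty of Hox RNA, but part of it lay in few cells. Of the 91 listed cells, 5 held 35.8% of the 296 Hox UMIs, with 34 UMIs in 1 cell. Cluster 1 of d2 EB, which had 593 CPM, held 8 of the listed cells. In thinned cells 50.5% of d2 PGCLC had a Hox UMI, against 83.6% of other cells and 20.4% of the extraembryonic ectoderm-like cells, the lowest cluster of that library, with median depths of 29664, 24046 and 35278 UMIs before thinning. The ratio between the groups differed from member to member. Hoxb1 had 10.2 CPM in d2 PGCLC and 16.3 CPM in other cells (ratio of other to PGCLC 1.59, 1.08 to 2.43), and Hoxb8 had 10.2 and 28.5 CPM (ratio 2.79). Hoxa9 had 0.341 and 15.4 CPM (ratio 45.1, 7.99 to 1790) and Hoxb6 1.36 and 44.7 CPM (ratio 32.8, 12.7 to 121). Hoxd9 was the most abundant member in both, with 33.8 and 122 CPM (ratio 3.62, 2.95 to 4.49).

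By cluster, the d2 PGCLC had 12.96 CPM of HoxA, 41.6 of HoxB, 7.16 of HoxC and 39.2 of HoxD, against 84.4, 174, 72.0 and 153 CPM in other cells. The ratio of other cells to PGCLC was 6.52 for HoxA and 10.0 for HoxC, and 4.19 for HoxB and 3.90 for HoxD. Of 32 members tested 27 were higher in the other cells, against 10.3% of all genes. Those not called were Hoxa2, Hoxa3, Hoxa4, Hoxb1 and Hoxc4, all of paralog groups 1 to 4, and each but Hoxb1 had 4 UMIs or fewer in PGCLC. Of the upstream factors Cdx4 and Cyp26a1 were higher in the other cells, and T and Fgf8 were higher in the listed PGCLC.

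At d4 the listed PGCLC were near the limit of detection, since 1 UMI equals 0.948 CPM there. A Hox UMI was found in 10.5% of thinned PGCLC, in 25.6% of the extraembryonic ectoderm-like cells of that library and in 3.18% of d2 EpiLC. The extraembryonic ectoderm-like cells had 43.2 CPM of Hox RNA themselves, and no background was measured. With so few UMIs the share in PGCLC is not read as expression. Of 31 members tested 29 were higher in the other cells, against 31.3% of all genes. Members at 0 UMIs in PGCLC included Hoxc9 with 50.1 CPM in other cells (at least 17.6-fold higher), Hoxa9 with 42.8 CPM (at least 15.1-fold) and Hoxc10 with 38.4 CPM (at least 13.5-fold). Hoxb13, at the posterior end of HoxB, had 4 of the 11 PGCLC UMIs, all in 1 cell, and 1 UMI among the 324 other cells.

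In R1 the dCD library had less Hox RNA than WT over all cells. The targeted genes could not be checked by their transcripts, since the mutations leave the messenger in place: Kmt2c had 47.5 CPM in WT and 53.8 in dCD and Kmt2d 29.4 and 29.1. The ratio of dCD to WT was 0.224 (0.214 to 0.233) over all members, with 0.238 for HoxA, 0.287 for HoxB, 0.148 for HoxC and 0.223 for HoxD. Anterior groups had a ratio of 0.386 (0.351 to 0.426), central groups of 0.152 (0.138 to 0.167) and posterior groups of 0.223 (0.211 to 0.236). The lowest ratios of single paralog groups were 0.0568 for group 6 and 0.0953 for group 8.

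Of 38 members tested 24 were lower in dCD, against 3.68% of all 16272 genes tested, and 1 was higher, against 6.31%. The median log2 ratio was -1.70 over members and 0.03 over all genes. Hoxb6 stood at 26.5 CPM in WT and 1.44 CPM in dCD (ratio 0.0544, 0.0370 to 0.0773). Hoxc6, Hoxc8 and Hoxc10, a run of thoracic to lumbar paralogs, stood at 16.7, 30.4 and 40.0 CPM in WT and 1.05, 2.36 and 3.32 CPM in dCD. Hoxa6 and Hoxd3 had 13 and 14 UMIs in WT and 0 in dCD. Hoxb13 was the member called higher, with 2 UMIs in WT and 30 in dCD (ratio 13.5, 3.42 to 117). Hoxc13 had 4.42 CPM in WT and 7.30 in dCD (ratio 1.65, 1.27 to 2.16), short of a call. At the anterior end Hoxb1, with 3.25 and 2.27 CPM, and Hoxb3, with 9.91 and 4.67 CPM, were not called.

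Neither the cofactors nor the 12 chromatin regulators had a member called between the 2 libraries. Of 11 upstream factors tested Cdx1 was higher in dCD, with 0.631 CPM in WT and 4.15 in dCD, and Cdx2 was lower, with 27.9 and 4.37 CPM. All 8 extraembryonic mesoderm markers had UMIs in both libraries, with a sum of 1038 CPM in WT and 268 in dCD, and their part in the Hox difference was not tested.

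The 2 R1 libraries differed in the cells they held. Joint clusters were again made without the Hox regions. Cluster 1, led by Col3a1, held 39.1% of 1416 WT and 6.36% of 1699 dCD cells. Cluster 5, led by Tbx4 and Pitx1 and left unnamed, held 25.0% of WT and 0 dCD cells. By 3 counts, 0 allows a dCD share of up to 0.177%. In cluster 5, 4 of 8 extraembryonic mesoderm markers were at least 2-fold higher than in other cells, Tbx4 and Pitx1 among them. Cluster 3, left unnamed, held 22 WT and 457 dCD cells, and the naive pluripotency-like cluster 2 held 115 and 463. Clusters 1 and 5 held 44.99% and 45.4% of the Hox UMIs of WT. In dCD 40.7% of Hox UMIs lay in cluster 3, 22.3% in cluster 1, 16.7% in the extraembryonic ectoderm-like cluster 6 and 11.8% in cluster 4, an unnamed one of 6 WT cells, which carried its leading hemoglobin transcripts, and 461 dCD cells.

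**Figure D4:**
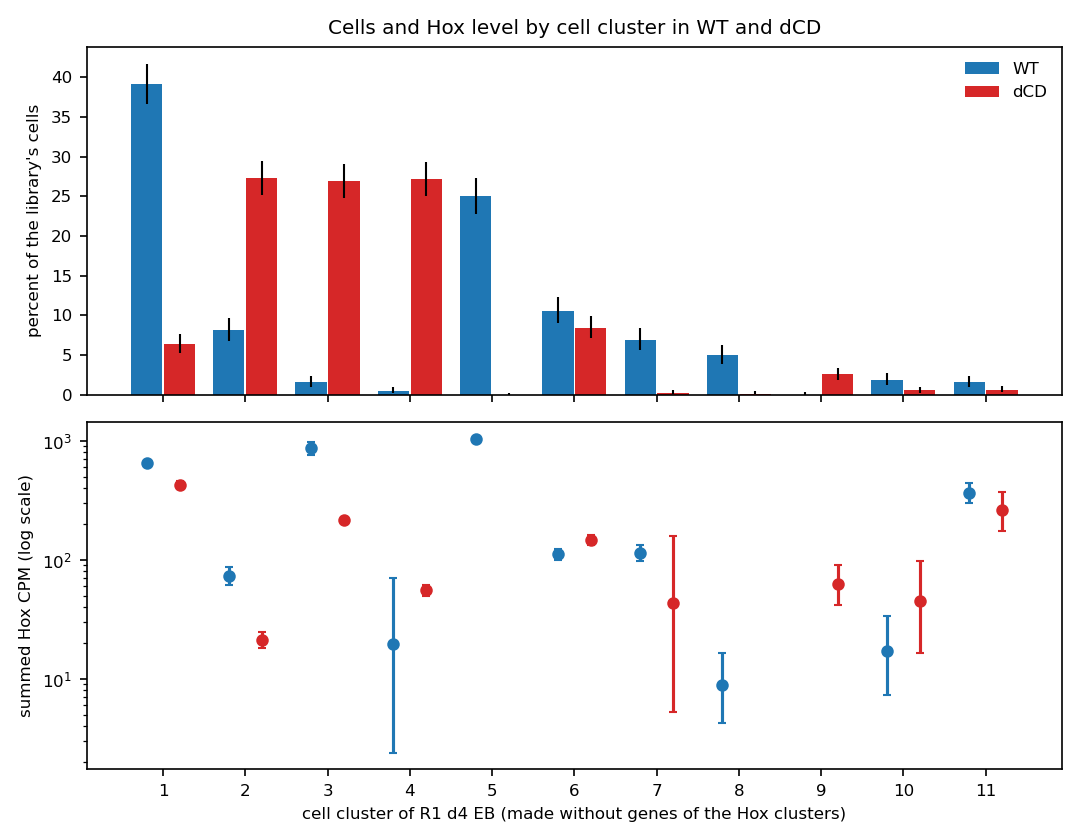
Cells per joint R1 cluster as a share of each library (percent) and summed Hox CPM of WT and dCD cells in each cluster, with exact 95% intervals as bars. Cluster 5 holds 25.0% of WT and 0 dCD cells and has the highest level, 1042 CPM.

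Within WT the highest level was in cluster 5, with 1042 CPM (1012 to 1071), and the lowest in the PGC-like cluster 8 (Dppa3 and Nanos3), with 10 UMIs and 8.95 CPM (4.29 to 16.5). The PGC-like cluster 7, with 5 of 6 PGC markers at least 2-fold higher, had 152 Hox UMIs in 98 WT cells. A Hox UMI was found in 31.6% of these cells, and 5 of them held 53.3% of the UMIs. Cluster 5 was rich in posterior paralogs, with Hoxa10 at 106, Hoxa9 at 98.3, Hoxc10 at 91.8 and Hoxd11 at 72.9 CPM. Cluster 1 was led by Hoxb2, a hindbrain and neural crest paralog, at 115 CPM, against 26.8 CPM in cluster 5. In cluster 1 Hoxa10 was found in 6.97% (4.11 to 10.9) of thinned cells with Hoxb2 and in 20.3% (15.9 to 25.4) of those without, intervals that do not overlap. Hoxc10 was found in 50.0% of cluster 1 cells with Hoxa10 and in 11.8% of those without.

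Compared within cluster 1, the dCD to WT ratio was closer to 1 than over all cells, and the Hox clusters parted. The summed level was 650 CPM in 554 WT cells and 426 CPM in 108 dCD cells, a ratio of 0.656 (0.601 to 0.715). HoxB had a ratio of 0.354 (0.295 to 0.423) and HoxC of 0.307 (0.237 to 0.392). HoxA and HoxD were above 1, with 1.23 (1.06 to 1.42) and 1.39 (1.16 to 1.66). Of 31 members tested 13 were lower in dCD, against 5.32% of all genes, and all 13 belonged to HoxB or HoxC. Hoxd12 was the 1 member higher there, against 4.96% of all genes, with 6 UMIs in WT and 9 in dCD (ratio 7.97, 2.54 to 27.2). Hoxb2 stood at 115 CPM in WT and 36.4 in dCD (ratio 0.318, 0.234 to 0.423), Hoxb6 at 44.7 and 8.01 CPM and Hoxc10 at 44.9 and 10.2 CPM. Hoxa10 stood at 36.0 and 61.9 CPM and Hoxd11 at 32.7 and 56.1 CPM, the higher value in dCD for both. The Cdx2 and Evx1 transcripts were lower and Cdx4 higher in dCD within cluster 1, while no cofactor or chromatin regulator was called. The cells of cluster 1 differed in other markers too. Extraembryonic mesoderm markers summed to 1346 CPM in WT and 755 in dCD (8 of 8 with a UMI in both), extraembryonic ectoderm markers to 2.74 and 22.6 (3 of 6 in both) and PGC markers to 9.73 and 25.5 (4 of 6 in both). Their part in the Hox values was not tested.

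**Figure D5:**
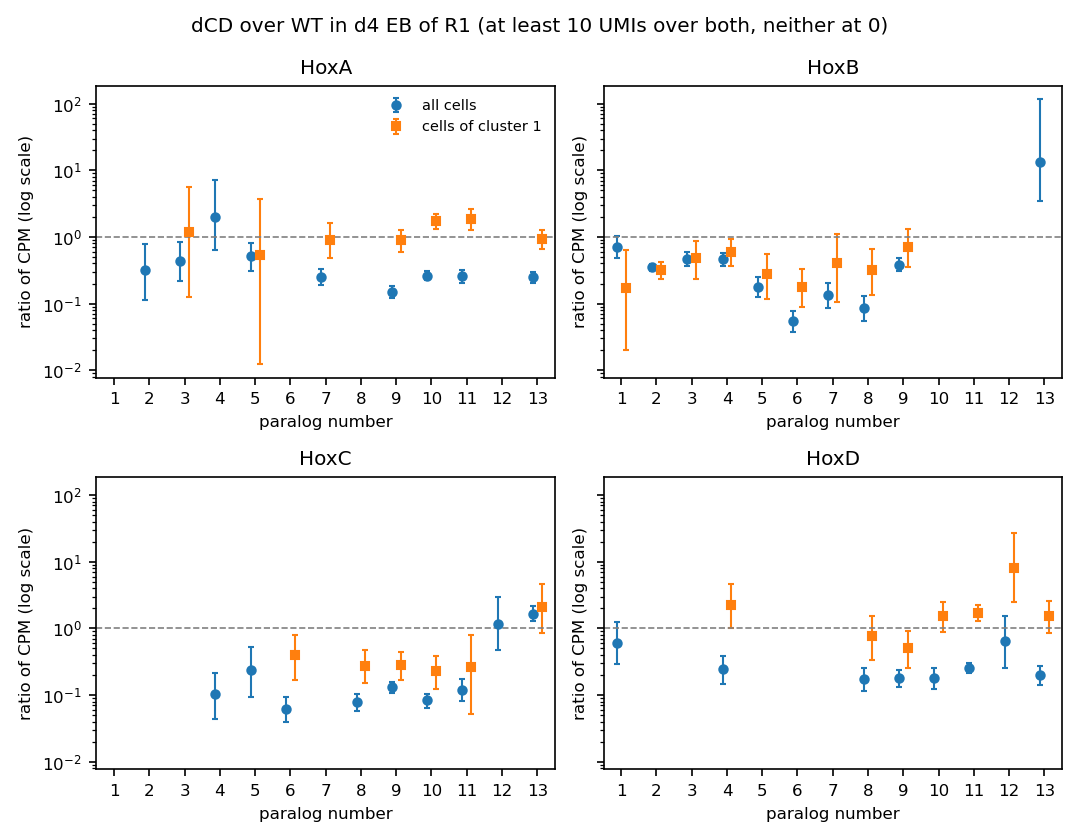
Ratio of dCD to WT CPM for each Hox member on a log axis, over all R1 cells and within cluster 1, with exact 95% intervals as bars. Over all cells the summed ratio is 0.224, and within cluster 1 HoxB and HoxC lie at 0.354 and 0.307 and HoxA and HoxD at 1.23 and 1.39.

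Other clusters gave other patterns, with fewer UMIs. In cluster 3, where WT had 22 cells, 13 of 23 members tested were lower in dCD, against 6.15% of all genes, and 7 were higher, against 20.3%. HoxC had a ratio of 0.0618 (0.0477 to 0.0802), with Hoxc9 at 158 CPM in WT and 7.49 in dCD, while HoxB had 3.65 (1.76 to 9.13), resting on 7 WT UMIs. In the extraembryonic ectoderm-like cluster 6, 8 of 19 members were higher in dCD, against 8.6% of all genes, among them Hoxb2 at 11.5 CPM in WT and 27.2 in dCD. Hoxd8, with 5.604 and 1.68 CPM, and Hoxd9, with 10.6 and 3.69 CPM, were lower there, against 3.18% of all genes. A Hox UMI was found in 35.6% of thinned WT and 33.3% of thinned dCD cells of cluster 6. Of its Hox UMIs, 7 of 149 WT cells held 35.3% and 7 of 143 dCD cells 42.1%. In the naive pluripotency-like cluster 2, 6 of 10 members were lower in dCD, against 2.94% of all genes, with 73.3 CPM in WT and 21.3 in dCD over all members. There the share of thinned cells with a Hox UMI was 13.6% in WT and 13.4% in dCD. In WT it was 8.82% in the PGC-like cluster 8 and 24.5% in the PGC-like cluster 7. The levels of cluster 2 thus rest on few cells. In WT 6 of the 115 cells held 70.5% of the 139 Hox UMIs of cluster 2.

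With the clusters given the same weight in both libraries, the summed ratio of dCD to WT was 0.505 in place of 0.224. Clusters 5 and 9, found in 1 library only, drop out of this value, and cluster 5 held 45.4% of the WT Hox UMIs. Cluster 4 entered it on 6 WT cells with 2 Hox UMIs, and clusters 7 and 8 on 3 and 2 dCD cells. The same weight left 9 members lower in dCD, against 2.16% of all genes. They were Hoxa9, Hoxb6, Hoxc4, Hoxc6, Hoxc8, Hoxc9, Hoxc10, Hoxc11 and Hoxd9, and Hoxd12 was higher, against 4.67%. HoxC had a ratio of 0.211, against 0.724 for HoxA, 0.651 for HoxB and 0.629 for HoxD. HoxC had the lowest ratio of the 4 clusters over all cells, within clusters 1 and 3 and at the same weight, while within clusters 2 and 6 it did not. Hoxc8 had ratios of 0.0776 over all cells, 0.278 in cluster 1, 0.0341 in cluster 3 and 0.152 at the same weight.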

How the data were processed

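Single-cell transcripts were counted in 8 E14Tg2a libraries (10x 3′ v2) and 2 R1 libraries (10x 3′ v3), with 1 library per condition. The deposited values are UMI counts per gene and cell. The E14Tg2a counts were made by the authors with Cell Ranger on GRCm38, with mapped reads per cell made equal across libraries, and hold 27998 genes and 2782 cells. The R1 counts (build mm10 in the submitters' processing notes) were deposited with 32285 genes and 3115 cells, after the authors removed cells with few expressed genes (the lowest had 2006). The tool that counted them is not given in the sources used here. Equalizing mapped reads thins the deeper libraries, so absent UMIs of low genes are less informative there. E14Tg2a libraries shared 8 barcodes and R1 libraries 0.

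Symbols were given to 27645 E14Tg2a identifiers. All 38 members had UMIs in both tables, and 36 in E14Tg2a and 38 in R1 had at least 10 (10408 and 13161 UMIs in all). Named genes were the members and the cofactors, upstream factors, chromatin regulators, noncoding transcripts and cell type markers listed for this work. Some genes outside the members are not reported here. Members and lists were chosen with earlier results of these data known. Counts were summed per group and scaled to 1000000 UMIs. Ratios have exact conditional 95% intervals. Log2 ratios took a pseudocount of 1 CPM and at least 10 UMIs over both groups, and calls a 2-fold ratio. Cells were thinned to 15374 (E14Tg2a) or 6831 UMIs (R1), and shallower cells, 4 to 37 per E14Tg2a library, 50 in WT and 170 in dCD, were left out. Clusters used 2000 variable genes without the Hox regions, with k-means on 20 principal components (3 clusters for d2 EB, 4 for d4 EB) in scikit-learn 1.9.0, or Seurat 5.3.0 with 10 components and resolution 0.3 for R1. Doublets, called with Scrublet in scanpy 1.11.5, made up 0.441% to 7.61% of a library and were kept (an alternative left them out). Cell barcodes of PGCLC came from the study's list. Python 3.11.15, numpy 2.4.6, scipy 1.17.1, pandas 2.3.3, matplotlib 3.10.9 and R 4.3.3 were used. On simulated data 197, 196 and 189 of 200 genes changed 4-fold were recovered for d2 EB over d2 EpiLC (13728 genes), d4 over d2 EB (13797) and dCD over WT (16279). The changed genes were drawn among those with at least 50 UMIs and the counts held Poisson error only. Recovery for members with fewer UMIs was not tested.

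Alternatives changed the scaling, pseudocount, minimum of UMIs, depth, doublets, PGCLC definition, members summed and cluster numbers. Sums without Hoxd9 for d4 over d2 EB, splitting the members of cluster 1 by Hox cluster and weighting only clusters of at least 20 cells were chosen after seeing the data.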

Additional observations from a re-analysis of the deposited data

Results flagged for a closer look

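The ratio of dCD to WT of a Hox cluster took opposite directions in different cell clusters of R1 d4 EB. For HoxA it was 1.23 in the Col3a1-led cluster 1 and 2.71 in the extraembryonic ectoderm-like cluster 6, but 0.276 in the unnamed cluster 3 and 0.214 in the naive pluripotency-like cluster 2. For HoxB it was 0.354 in cluster 1, but 3.65 in cluster 3 and 1.71 in cluster 6. For HoxD it was 1.39 in cluster 1, but 0.176 in cluster 3 and 0.12 in cluster 2. The exact intervals of each of these ratios lie on 1 side of equality, but they cover counting error only. With 1 library per condition the differences between cell clusters were not tested, and WT had 22 cells in cluster 3. In cluster 6 HoxA had 31 UMIs in WT and 78 in dCD. There 7 of 149 WT cells held 35.3% of all Hox UMIs, and 7 of 143 dCD cells 42.1%. The values of cluster 2 rest on few cells. A Hox UMI was found there in 13.6% of thinned WT and 13.4% of thinned dCD cells. Of the 139 WT Hox UMIs of cluster 2, 70.5% lay in 6 of 115 WT cells.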

How the results depend on the processing

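No paired analysis was possible because each condition has 1 library. Of 156 alternatives 102 kept the value within counting error, or a count within 1.5-fold, 49 moved it and 5 reversed it. Of the 56 for counts of members 52 were within 1.5-fold. The ratio of d4 to d2 EB was 0.882 with median-of-ratios size factors, 1.02 in thinned cells and 1.24 without Hoxd9. Leaving out Hoxd9 reversed HoxD to 1.86 and paralog group 9 to 1.80, and within cluster 1 of each day to 2.03 and 1.92. It moved groups 9 to 13 to 2.81 and 3.09. Other d2 EB cells over d2 PGCLC gave 5.82 without extraembryonic ectoderm-like cells and 6.91 with the PGC-like cluster as PGCLC, which gave 20.3 at d4. For dCD over WT the ratio was 0.201 without clusters with PGC markers, 0.505 with clusters at the same weight and 0.480 with clusters of at least 20 cells at the same weight, with 9 and 11 members lower in the latter weightings and 2 higher in the last. With at least 50 UMIs 0 members were higher, since Hoxb13 was not tested. Within cluster 1 the ratio reversed to 1.29 for HoxA and HoxD members and was 0.337 for HoxB and HoxC members. These splits were chosen after seeing the data.

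As a mean over cells the summed level was 7.48 CPM in d1 EpiLC and 40.3 in EpiSC, 440 at d2 and 464 at d4 in EB, and 556 in WT and 123 in dCD. Without Hoxd9 it was 23.1 in EpiSC and 302 and 374 in EB of d2 and d4, and without Hoxb2 462 in WT and 97.0 in dCD. Cells with at least 2 Hox UMIs made up 13.2% of 2i ESC, 1.43%, 1.04% and 0% of d1, d2 and d3 EpiLC, 5.63% of EpiSC, 4.53% of S+L ESC, 74.9% of d2 EB, 78.0% of d4 EB, 68.1% of WT and 25.8% of dCD. Thinned shares were 18.4% in 2i ESC, 7.87%, 3.18% and 0.771% in d1, d2 and d3 EpiLC, 7.48% in EpiSC, 13.3% in S+L ESC, 77.8% and 79.2% in EB of d2 and d4, 70.3% in WT and 34.5% in dCD. With other cluster numbers the highest d2 EB cluster had 654 CPM and the lowest R1 cluster 20.6 CPM. The cause of these moves was not tested beyond what each setting leaves out. Depth limits the values of the listed d4 PGCLC, with 11 Hox UMIs.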

Other observations

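Some noncoding transcripts of the Hox clusters differed in direction from the sum of the coding members of their cluster. The antisense transcript Hoxaas3 had 277 UMIs in d2 EB and 17 in d4 EB (18.9 and 1.77 CPM), while HoxA members together were 1.97-fold higher at d4. Single HoxA members differed, and Hoxa7 had 34.1 CPM at d2 and 21.9 CPM at d4 in EB cells outside the listed PGCLC. Hoxb3os had 265 and 42 UMIs (18.1 and 4.37 CPM), the lower level at d4 as for the HoxB members. Halr1, which lies beside HoxA, had 170 UMIs in d1 EpiLC (15.5 CPM) and 201 in S+L ESC (19.9 CPM), where the HoxA members had 10 and 3 UMIs, and 12 or fewer in every other E14Tg2a library. In R1, Halr1 had 46 UMIs in WT and 198 in dCD (2.23 and 8.65 CPM), the opposite direction to the coding members. Hoxa11os had 20.9 CPM in WT and 6.204 in dCD, and Hoxb5os 98 UMIs in WT and 2 in dCD. The strand setting of the counting is not given in the sources used here, so antisense and sense reads may be mixed in these values.

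Pairs of neighbors were also counted in cell clusters of WT d4 EB. In cluster 5 Hoxa10 was found in 48.3% (39.9 to 56.7) of thinned cells with Hoxa9 and in 49.5% (42.2 to 56.8) of those without. In cluster 1 the shares were 40.6% (28.5 to 53.6) and 10.6% (8.0 to 13.8). Hoxb8 was found in 28.1% (19.4 to 38.2) of cells with Hoxb6 and 13.7% (9.62 to 18.7) of those without in cluster 5, and in 27.2% and 6.67% in cluster 1. The difference between the cell clusters was not tested.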
